A study of Mus musculus with 6 samples.

Results

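The insulin, growth hormone and insulin-like growth factor (IGF) axis was followed in hepatocytes of mice with and without hepatocyte FOXA2 through 10 genes chosen by name: Igf1, Igfbp1, Igfbp2, Igfbp4, Igfals, Insr, Irs1, Irs2, Ghr and Foxo1. All 10 were found, each as 1 gene, among the 34745 genes counted, and all 10 were among the 14417 genes that passed the filter on low counts. The choice is a list of names and has no threshold on a measured value. Primary hepatocytes came from male mice, 12 weeks old by the labels, in 2 groups of 3 libraries. FOXA2f/f+CCl4 mice carried Foxa2 alleles flanked by loxP sites and were given a control virus, AAV8-TBG-Control. FOXA2H-KO+CCl4 mice carried the same alleles and were given AAV8-TBG-Cre, an adeno-associated virus in which the TBG promoter restricts the Cre recombinase to hepatocytes. Both groups then received carbon tetrachloride (CCl4), a hepatotoxin that causes liver fibrosis, at 0.25 ml/kg 2 times a week for 4 weeks, starting 2 weeks after the virus. Both groups were therefore fibrotic and both had received a virus, and a group without CCl4 was not analysed here. Mice of both groups were killed 3 days after the last CCl4 injection.

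Growth hormone from the pituitary binds its receptor, Ghr, on hepatocytes and acts through the kinase Jak2 and the transcription factors Stat5a and Stat5b. In the liver it induces Igf1, the circulating growth factor, and Igfals, the acid labile subunit, a glycoprotein that holds IGF and its binding protein in a large complex in the blood. Insulin from the portal vein binds its receptor, Insr, and acts through the adaptors Irs1 and Irs2 on the kinase Akt, which keeps the transcription factor Foxo1 out of the nucleus. Insulin thereby lowers Igfbp1 and the genes of gluconeogenesis and raises those of fatty acid synthesis. FOXA2 is a forkhead transcription factor of the liver, as Foxo1 is of the insulin pathway.

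Foxa2 itself, on chromosome 2, was counted at 442, 246 and 516 fragments in FOXA2f/f replicates 1, 2 and 4 and at 28, 19 and 35 in FOXA2H-KO replicates 1, 2 and 4. The level in FOXA2H-KO libraries was 6.98% of that in FOXA2f/f libraries in CPM (counts relative to the library size, here corrected by edgeR's TMM factors), and the labels were borne out in every library. It was the only gene of 14417 called at an adjusted p under 0.05 and a fold change of at least 2, which is 0.00694% of the genes tested (edgeR quasi-likelihood test, log2 fold change -3.85, SE 0.31, adjusted p = 0.0313). Total counts were between 20983455 and 28327765. FOXA2f/f replicate 2 stood apart from the other 5 libraries: Fasn, fatty acid synthase, was at 3705 CPM there and at 147 to 457 CPM elsewhere, and 10 of 12 genes of cell isolation stress were at their lowest in it. For the members and lists that it moves most, values are given with and without it. The libraries were not hepatocytes alone, since summed macrophage markers (12 of 12 detected) ranged from 674 to 3086 CPM in FOXA2f/f and from 1497 to 2380 CPM in FOXA2H-KO, beside 107313 to 149959 and 103659 to 134064 CPM for 8 hepatocyte markers. In such bulk samples fewer cells of a type and less RNA per cell cannot be told apart.

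None of the 10 members was called. The counts of the members are set beside the 14417 genes tested, of which 5.17% had an unadjusted p under 0.05 in the same test, 3.18% with a lower level in FOXA2H-KO. Igfals, 1 of the 10 members, had such a p. Likewise, the 3 libraries of a group lay wholly above or below those of the other group for 10.5% of all genes tested, 5.96% with FOXA2H-KO lower, and for 1 of the 10 members, again Igfals. These shares rest on 1 gene, and 1 gene in 10 is no more than the share of all genes with separate groups. The log2 fold changes of the members ran from -0.75 to 0.40 with a median of -0.13, beside a median of -0.012 over all genes tested. Of the 10, 7 were below 0 and 3 above.

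**Figure D1:**
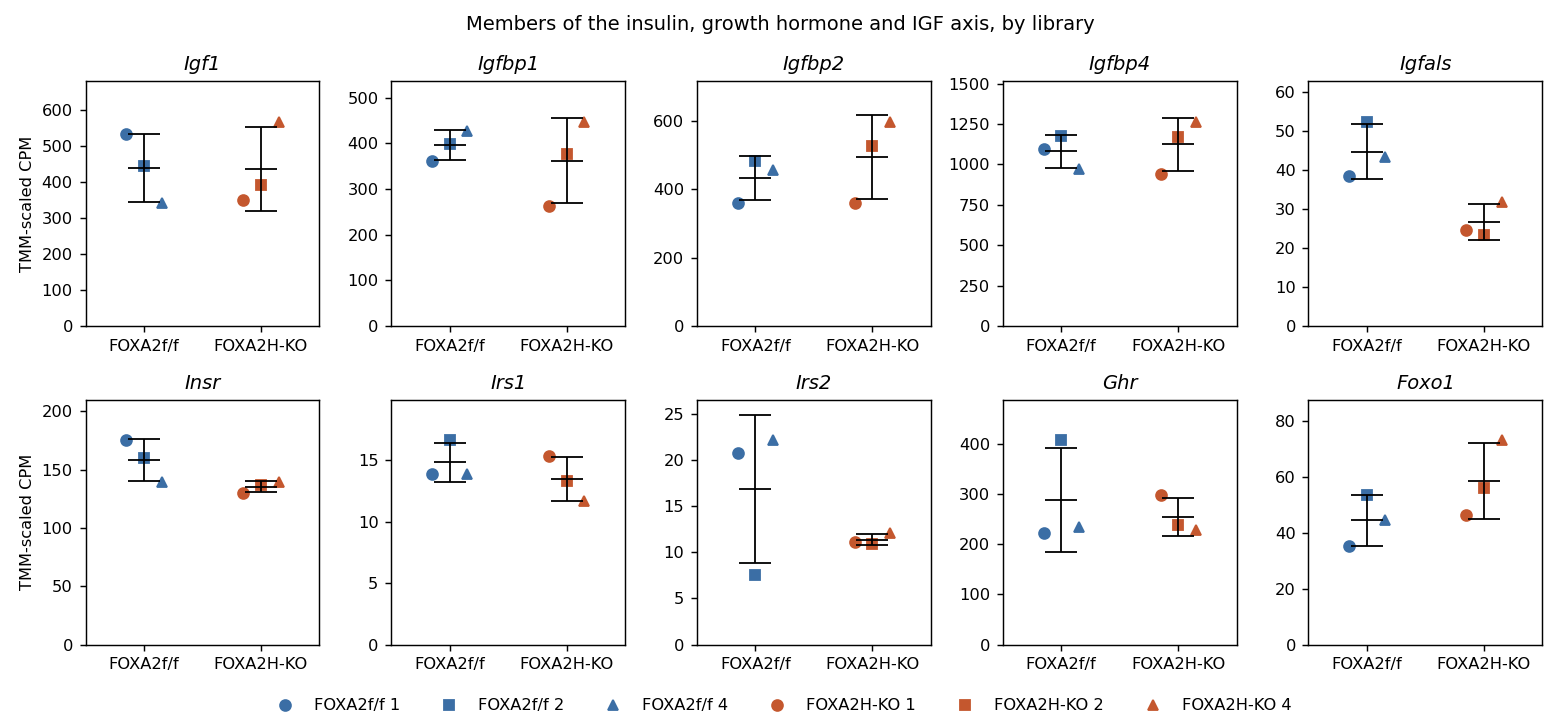
Each panel plots 1 member in TMM-scaled CPM (vertical axis from 0) for FOXA2f/f (blue) and FOXA2H-KO (red), with circles, squares and triangles for replicates 1, 2 and 4 and bars for the mean and SD of 3 libraries. The groups are apart only for Igfals, at 38.5 to 52.3 against 23.3 to 31.8 CPM, and the FOXA2f/f square of Irs2 and of Ghr lies away from the other libraries of its group.

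Among the products of growth hormone action, Igfals had its lowest values in the 3 knockout libraries, whereas the mean of Igf1 was 439 ± 94.6 CPM in FOXA2f/f and 435 ± 115 CPM in FOXA2H-KO (SD, n = 3). Igfals (ENSMUSG00000046070, chromosome 17, 24865997 to 24882010 on the plus strand of GRCm38) was counted at 897, 954 and 1363 fragments in FOXA2f/f and 668, 581 and 688 in FOXA2H-KO replicates 1, 2 and 4. Scaled, these were 38.5, 52.3 and 43.3 CPM against 24.6, 23.3 and 31.8 CPM. Every FOXA2H-KO library lay below every FOXA2f/f library, and the same held for the deposited FPKM (fragments per kilobase of gene, scaled by the total count), at 16.6, 21.5 and 22.8 against 13.1, 11.2 and 15.0. The mean of FOXA2H-KO was 59.4% of that of FOXA2f/f (26.6 ± 4.60 against 44.7 ± 7.0 CPM, SD, n = 3). The log2 fold change was -0.75 (SE 0.18, 95% interval -1.16 to -0.34) and the adjusted p of edgeR's quasi-likelihood test was 0.607, so that Igfals did not pass the threshold. By unadjusted p it ranked 68th of the 14417 genes. The exact two-sided permutation test gave p = 0.1, the smallest that 3 against 3 libraries allow. When 1 library was left out in turn the log2 fold change stayed between -0.89 and -0.62, and without FOXA2f/f replicate 2 it was -0.62 (adjusted p = 0.472 by edgeR). The lowest adjusted p over 16 alternative settings was 0.0720, with DESeq2, and the highest was 1.00. Asgr1, a hepatocyte surface receptor and 1 of the 8 hepatocyte markers, named after its values were seen, also had its lowest values in FOXA2H-KO. It was at 314 to 444 CPM against 232 to 299 CPM (log2 fold change -0.55, adjusted p = 0.843 by edgeR). Asgr1 was the only marker of the 8 with an unadjusted p under 0.05 or with separate groups. Alb differed by -0.12, Serpina1a by 0.20 and Cyp2e1, the marker furthest from 0, by 0.72 (0.31 without FOXA2f/f replicate 2). With libraries scaled to the 8 hepatocyte markers, a setting added after the data were seen, Igfals was at -0.78.

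Igf1 (ENSMUSG00000020053, chromosome 10, 87858265 to 87937042, plus strand) was at 531, 444 and 342 CPM in FOXA2f/f replicates 1, 2 and 4 and at 349, 391 and 566 CPM in FOXA2H-KO. Each group held 1 library above 500 and 1 below 350 CPM, and the groups overlapped over nearly their whole range. The log2 fold change was -0.01 with a 95% interval of -0.59 to 0.56. Its sign depended on the scaling, at 0.11 by library size alone, a scaling that moved the median of all genes by 0.116. Within each library the ratio of Igfals to Igf1 fragments does not depend on scaling. It was 0.0725, 0.118 and 0.127 in FOXA2f/f and 0.0704, 0.0597 and 0.0562 in FOXA2H-KO. The groups did not overlap, although FOXA2f/f replicate 1 and FOXA2H-KO replicate 1 were close to each other. The difference was -0.73 on the log2 scale (exact two-sided permutation p = 0.1, adjusted p = 0.250 over 5 ratios).

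The letters upstream of the start sites of Igfals, a target of growth hormone, and Igfbp1, a target of insulin, are shown, from RefSeq on GRCm38.p6. The 250 bases before each start were read for 9 of the 10 members (13 starts, with no entry for Insr). They were searched on both strands for CAAAACAA, part of the insulin response element, and for TTCNNNGAA, the core bound by STAT5. The search also covered TGTTTAC and TGTTTGC, 2 forms of the forkhead core. These motifs were found in 2.21%, 7.02%, 3.17% and 4.3% of 32851 such windows. Capitals mark the matches and no 2 matches overlap.
Igfbp1, chr11:7197537-7197786, plus strand: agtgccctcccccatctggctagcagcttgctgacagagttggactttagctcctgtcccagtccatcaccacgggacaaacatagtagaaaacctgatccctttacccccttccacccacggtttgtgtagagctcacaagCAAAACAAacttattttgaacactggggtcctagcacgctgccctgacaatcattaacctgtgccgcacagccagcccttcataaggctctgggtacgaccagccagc
Igfals, second start, chr17:24877981-24878230, plus strand: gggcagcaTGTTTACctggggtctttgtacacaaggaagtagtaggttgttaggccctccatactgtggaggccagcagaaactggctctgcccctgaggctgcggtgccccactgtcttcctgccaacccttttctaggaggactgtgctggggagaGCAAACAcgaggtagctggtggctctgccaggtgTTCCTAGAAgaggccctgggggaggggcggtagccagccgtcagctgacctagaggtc
The Igfbp1 window held CAAAACAA from -108 to -101, counted from the start site. The second of 3 Igfals windows held TGTTTAC from -242 to -236, TGTTTGC on the minus strand from -92 to -86 (read here as GCAAACA) and the STAT5 core from -58 to -50, and the first held another STAT5 core from -236 to -228. Irs1 and Irs2 each held CAAAACAA on the minus strand, at -33 and -38, and the second of 2 Ghr windows held TGTTTGC at -81. The other 7 windows held none of these letters, and other forms of the forkhead core were not searched for. A match is a description of the sequence, and no binding was measured in these samples.

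The binding proteins had the highest FPKM of the members, and none was separated by genotype. Igfbp1, whose product binds IGF in the fasting state, was at 362, 399 and 427 CPM in FOXA2f/f and 262, 377 and 447 CPM in FOXA2H-KO. FOXA2H-KO replicate 1 was the lowest and replicate 4 the highest of all 6 libraries, so that the FOXA2H-KO range enclosed that of FOXA2f/f. The log2 fold change was -0.13 (95% interval -0.63 to 0.38), and without FOXA2H-KO replicate 1 it was 0.06. Igfbp2, a binding protein of the liver and the developing animal, was at 360, 483 and 457 CPM against 359, 527 and 597 CPM. The lowest libraries of the 2 groups differed by 1 CPM and the 2 highest were both FOXA2H-KO (log2 fold change 0.19, interval -0.35 to 0.72). Igfbp4, which restrains IGF in tissues, was at 1093, 1176 and 974 CPM against 941, 1167 and 1263 CPM, a log2 fold change of 0.06 (interval -0.40 to 0.51). Its libraries lay within a range of 1.34 times, the narrowest of the members.

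Although neither gene was separated alone, the ratio of Igfbp1 to Igfbp2 fragments was 1.01, 0.825 and 0.935 in FOXA2f/f and 0.732, 0.716 and 0.749 in FOXA2H-KO. All 3 FOXA2H-KO libraries were lower, with an SD of 0.03 on the log2 scale against 0.14 in FOXA2f/f. The difference was -0.33 (exact two-sided permutation p = 0.1, adjusted p = 0.250). The ratio of Igfbp1 to Igf1, in contrast, overlapped, at 0.681, 0.898 and 1.25 against 0.752, 0.966 and 0.789 (exact permutation p = 0.700).

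**Figure D2:**
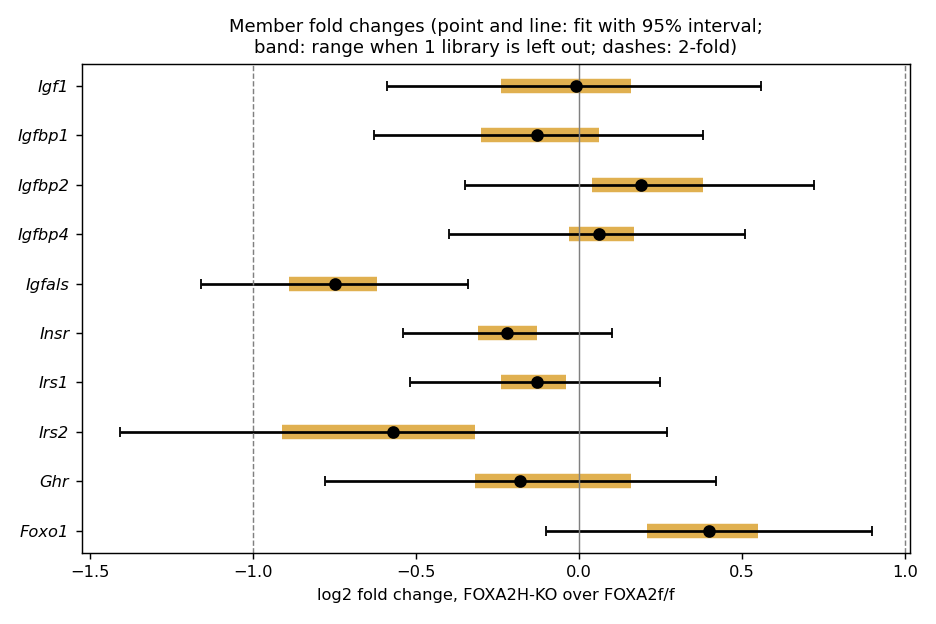
The horizontal axis is the log2 fold change of FOXA2H-KO over FOXA2f/f for each member, with the fitted value and its 95% interval (point and line), the range of values when 1 library is left out (band), and a change of 2-fold either way (dashes). The interval of Igfals, -1.16 to -0.34, is the only one that does not cross 0, and that of Irs2, -1.41 to 0.27, is the widest.

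Of the 2 hormone receptors, neither passed the test. Insr was at 175, 160 and 139 CPM in FOXA2f/f and at 130, 137 and 139 CPM in FOXA2H-KO. The FOXA2H-KO libraries lay close together at the lower end of FOXA2f/f, and the groups touched only at FOXA2f/f replicate 4. The log2 fold change was -0.22 (SE 0.14, interval -0.54 to 0.10, adjusted p = 0.974 by edgeR). Under upper quartile scaling and under DESeq2's size factors the groups of Insr no longer touched, which made 2 members without overlap. The share of all genes without overlap was counted under TMM alone. Ghr was at 223, 408 and 235 CPM against 298, 239 and 228 CPM. FOXA2f/f replicate 2 was 1.37 times the next library, and the other 5 were mixed by group. The log2 fold change was -0.18 (interval -0.78 to 0.42) and turned to 0.16 without that library, so that its direction rested on 1 library. The ratio of Insr to Ghr overlapped between groups (0.785, 0.392 and 0.589 against 0.435, 0.574 and 0.608, exact permutation p = 0.900).

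Downstream of the insulin receptor, Irs1 and Irs2 ranged differently from each other across libraries. Irs1 was at 13.9, 16.6 and 13.9 CPM in FOXA2f/f and at 15.3, 13.3 and 11.7 CPM in FOXA2H-KO, from 254 to 438 fragments a library. The groups overlapped (log2 fold change -0.13, interval -0.52 to 0.25). Irs2, the adaptor that insulin itself represses, was at 20.7, 7.57 and 22.1 CPM against 11.1, 10.9 and 12.1 CPM. FOXA2f/f replicates 1 and 4 were at about the same level and above all 3 FOXA2H-KO libraries, whereas FOXA2f/f replicate 2, at 138 fragments, was the lowest of the 6. With all libraries the log2 fold change was -0.57 (SE 0.36, adjusted p = 0.981 by edgeR). Without FOXA2f/f replicate 2 it was -0.91 (SE 0.14, adjusted p = 0.115 by edgeR), which still missed the threshold. That setting leaves 2 FOXA2f/f libraries and was read because that library stands apart. Neutrophil markers summed to 73.1, 4.22 and 38.2 CPM in FOXA2f/f and 7.87, 12.8 and 6.61 CPM in FOXA2H-KO. There too FOXA2f/f replicates 1 and 4 were above all 3 FOXA2H-KO libraries and FOXA2f/f replicate 2 was the lowest. Within FOXA2H-KO the order was the reverse of that of Irs2. Of 6 markers 5 were tested, and 4 (S100a8, S100a9, Mpo and Elane) had lower levels in FOXA2H-KO with an unadjusted p under 0.05, both with all libraries and without that one. None of the 6 was at 0 in all libraries. The 12 isolation stress genes summed to 636, 240 and 745 CPM against 559, 608 and 531 CPM, and without that library 2 had such a p, Fos at -1.0 and Junb at -0.66. The part of either group of genes in the Irs2 values was not tested. Without FOXA2f/f replicate 2, 3 members had an unadjusted p under 0.05, Irs2, Igfals and Foxo1, beside 5.59% of 14821 genes tested. The ratio of Irs2 to Irs1 was 1.5, 0.457 and 1.59 in FOXA2f/f against 0.727, 0.819 and 1.03 in FOXA2H-KO, with the same library as the exception (exact permutation p = 0.8).

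Foxo1 was at 35.2, 53.6 and 44.5 CPM in FOXA2f/f and 46.3, 56.1 and 73.1 CPM in FOXA2H-KO. Each FOXA2H-KO library exceeded the FOXA2f/f median, and the groups overlapped through FOXA2f/f replicate 2. The mean was 132% of FOXA2f/f, with a log2 fold change of 0.40 (SE 0.21, interval -0.10 to 0.90, adjusted p = 0.952 by edgeR). On the deposited FPKM, which are scaled by total count alone, the order was 3.70, 5.38 and 5.71 against 6.01, 6.58 and 8.37, without overlap. By library size alone the log2 fold change was 0.50 (adjusted p = 0.949 by edgeR). Relative to the shift of 0.116 that this scaling gave all genes, it was close to the value under TMM. Part of the Irs1, Irs2 and Foxo1 exons (30.9%, 2.6% and 7.8% of their bases in GENCODE M21) is shared with a gene on the opposite strand. Each of those opposite genes was listed at 0 fragments in all 6 libraries, which does not tell how fragments in the shared bases were assigned.

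Compared per length, in FPKM as deposited, the median of 6 libraries was highest for the binding proteins Igfbp1 (240, range 193 to 311), Igfbp4 (175, 163 to 205) and Igfbp2 (172, 121 to 220), whose ranges overlapped. Igf1 followed at 30.0 FPKM (28.9 to 42.8), wholly below the binding proteins. Ghr at 20.9 (16.8 to 29.4), Igfals at 15.8 (11.2 to 22.8) and Insr at 13.6 (13.1 to 15.2) came next, and from Igf1 to Insr each range overlapped with that of its neighbour in this order. Foxo1 (5.86), Irs2 (3.04) and Irs1 (1.53) formed the lowest group, below all Insr values. With exon lengths from GENCODE M21 in place of the lengths implied by the deposited values, Igfbp2 (251) was first and Igfbp1 (240) was in place 3, and ranks 4 to 10 did not move.

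**Figure D3:**
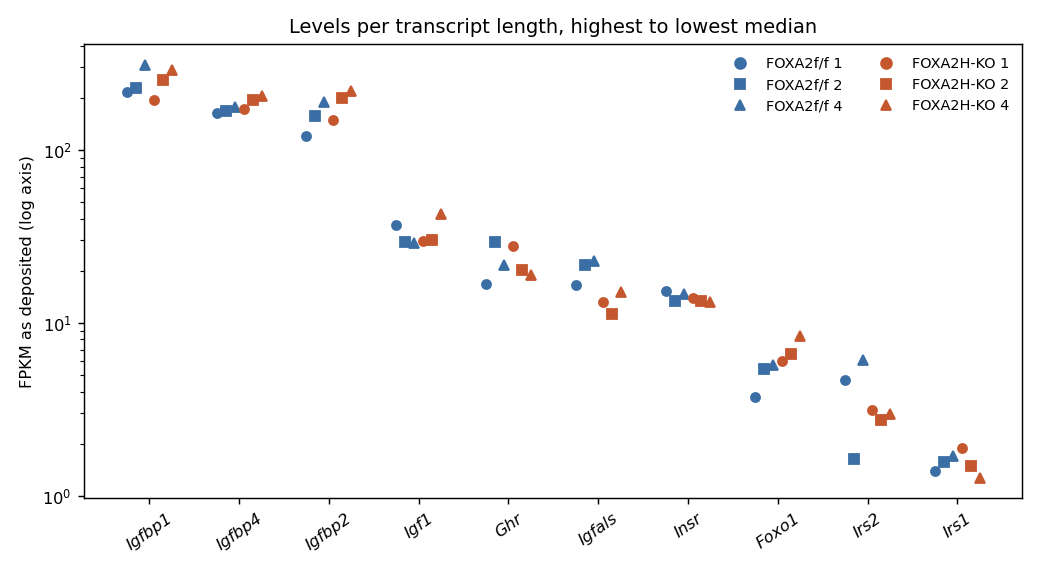
Deposited FPKM (log axis) of each member in each library, in order of the median, with FOXA2f/f in blue and FOXA2H-KO in red. The 3 binding proteins sit above 100 FPKM, Igf1, Ghr, Igfals and Insr between 11.2 and 42.8, and Foxo1, Irs2 and Irs1 below 10.

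The other genes of these pathways were read from lists, of which no gene was called by edgeR's quasi-likelihood test with all 6 libraries. In the IGF system 9 of 14 genes were tested and 1 had an unadjusted p under 0.05. Igfbp6, a binding protein with a preference for IGF2, was at 1.46, 1.04 and 1.30 CPM in FOXA2f/f and 3.94, 1.56 and 2.96 CPM in FOXA2H-KO (19 to 107 fragments, log2 fold change 1.15, SE 0.39, adjusted p = 0.836 by edgeR). Igfbp5 (0.99), Igf2r (0.29), Igfbp3 (-0.43) and the IGF1 receptor Igf1r (-0.19) had no such p. FOXA2H-KO replicate 1 was the highest library for 5 of the 9 genes and FOXA2f/f replicate 2 the lowest for 5. The summed cholangiocyte markers, at 174 to 367 CPM in FOXA2f/f and 252 to 708 CPM in FOXA2H-KO, and 12 stellate cell and fibroblast markers, at 1155 to 3026 and 1805 to 2762 CPM, also varied between libraries, with FOXA2f/f replicate 2 at the lowest sum of both. Most of the cholangiocyte sum was Spp1, at 164 to 353 CPM in FOXA2f/f and 241 to 687 CPM in FOXA2H-KO. All 6 cholangiocyte markers and all 12 stellate cell and fibroblast markers were detected. All 6 cholangiocyte markers had a log2 fold change above 0, with a median of 0.82. Of these, 2 had an unadjusted p under 0.05, Krt7 and Spp1, beside 5.17% of all genes tested. Without FOXA2f/f replicate 2 there were 0. The groups of Krt19 and Krt7 did not overlap, as for 10.5% of all genes. Of the 12 stellate cell and fibroblast markers 10 were above 0 and 2 below, none with such a p. The part of either marker set in the IGF system values was not tested.

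Of 36 genes of insulin signalling 34 were tested, with a median log2 fold change of 0.03 and a range of -0.60 to 0.51. Their summed level was between 1610 and 1711 CPM in FOXA2f/f and between 1642 and 1708 CPM in FOXA2H-KO. Of these, 1 gene, or 2.94%, had an unadjusted p under 0.05. It was Enpp1, a membrane pyrophosphatase that can inhibit the insulin receptor, at 27.2, 22.2 and 26.9 CPM against 31.5, 34.9 and 42.0 CPM, without overlap (log2 fold change 0.51, SE 0.16, adjusted p = 0.791 by edgeR). Gsk3b, a kinase that Akt inhibits, was at 0.23 and Trib3, a pseudokinase that binds Akt, at -0.60, both short of that p. The kinases Akt1 (0.02) and Akt2 (-0.15) and the lipid kinase subunit Pik3r1 (0.04), named for their role after their values were seen, had no such p either.

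All 16 genes of growth hormone signalling were tested. Stat5a was at 9.36, 8.22 and 8.04 CPM in FOXA2f/f and at 13.9, 10.1 and 11.7 CPM in FOXA2H-KO, without overlap (log2 fold change 0.48, SE 0.18, adjusted p = 0.898 by edgeR). It was the only gene of this list with an unadjusted p under 0.05. Stat5b, its close relative, was at -0.06 and Jak2 at 0.19. Socs2 and Cish, both induced by STAT5, varied more between libraries than between groups. Socs2 was at 11.5, 1.15 and 7.28 CPM against 5.11, 4.49 and 17.4 CPM. Cish was at 8.42, 1.97 and 8.42 CPM against 1.84, 2.69 and 5.46 CPM. FOXA2f/f replicate 2 was again low, and it was the lowest library for 7 of the 16 genes. Without it 3 genes of the list had an unadjusted p under 0.05, all with lower levels in FOXA2H-KO. They were Cish (-1.35, in place of -0.93), Stat3 (-0.49, in place of -0.34) and Socs3 (-1.32, in place of -0.82, named after its values were seen), with adjusted p = 0.587, 0.466 and 0.208 by edgeR. FOXA2f/f replicate 2 held the lowest FOXA2f/f value of each of these 3 genes, so that leaving it out by itself lowers their fold changes. Stat5a, at 0.45, no longer had such a p, and Socs2 was at -0.06 in place of 0.42.

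All 19 genes that respond to insulin or FOXO1 were tested, and 7, or 36.8%, had an unadjusted p under 0.05, 6 of them lower in FOXA2H-KO and none called. Without FOXA2f/f replicate 2 there were 4. Srebf1, the transcription factor of fatty acid synthesis, was at 302, 591 and 242 CPM in FOXA2f/f and 161, 208 and 104 CPM in FOXA2H-KO. Its groups did not overlap, and the log2 fold change was -1.26 with all libraries and -0.79 without FOXA2f/f replicate 2 (adjusted p = 0.771 and 0.740 by edgeR). Fasn, at 448, 3705 and 417 CPM against 373, 457 and 147 CPM, went from -2.23 to -0.41 when that library was left out. Acly, which makes cytosolic acetyl-CoA, went from -1.72 to -0.28 and G6pc, the phosphatase that releases glucose, from -1.20 to -0.51. Pnpla3, a lipid droplet protein, went from -2.88 to -1.34. Pdk4, an inhibitor of pyruvate dehydrogenase that insulin lowers, was at 1.11 with and 0.75 without that library. Pck1, the enzyme of gluconeogenesis, was at 0.35 (SE 0.34). FOXA2f/f replicate 2, the library with high Srebf1 and Fasn, was also the one with low Irs2. Genes that insulin lowers were mixed there. G6pc was at its highest, at 1089 CPM against 178 to 438 CPM elsewhere, whereas Pck1 (1356 CPM) and Pdk4 (8.77 CPM) were at their lowest. Igfbp1, at 399 CPM, lay within the range of the other libraries. The part of insulin in these levels was not tested.

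Liver genes whose sex bias follows the pattern of growth hormone secretion were read as a further output of Ghr. Of 12 male-biased genes 11 were tested, and 10 of these 11 were at their highest in FOXA2f/f replicate 2, the library that was also highest for Ghr. Mup20, a major urinary protein chosen after its values were seen, was at 1271, 5171 and 1306 CPM against 4011, 2337 and 3681 CPM. Hsd3b5 (-4.59), Selenbp2 (-1.12) and Nudt7 (-1.0) had an unadjusted p under 0.05, and without FOXA2f/f replicate 2 they were at -1.02, -0.76 and -0.49. Without that library 6 of the 11 genes had such a p, beside 5.59% of all genes tested. Of the 6, 5 had a higher and 1 a lower level in FOXA2H-KO, and the median log2 fold change of the list turned from -0.07 to 0.22. That setting leaves 2 FOXA2f/f libraries. Since the library left out was the highest for 10 of the 11 genes, a rise of their fold changes without it was fixed in advance. The 5 were Cyp4a12b (3.23), Cyp4a12a (2.66), Cyp7b1 (2.16), Mup20 (1.38) and Ugt2b38 (0.93), which were at 0.61, -0.06, 1.04, 0.37 and 0.38 with all libraries. Cyp7b1, an oxysterol hydroxylase, was at 7.95, 43.7 and 11.0 CPM in FOXA2f/f and 39.5, 40.2 and 48.1 CPM in FOXA2H-KO. It passed the call threshold without FOXA2f/f replicate 2 (adjusted p = 0.0419 by edgeR, 0.957 with all libraries). That call leaves out the FOXA2f/f value of 43.7 CPM, which lies within the range of FOXA2H-KO. These 5 genes were named after their values were seen. Of 12 female-biased genes 7 were tested, at low levels. Cyp2a4, a steroid hydroxylase, was at 7.60, 11.9 and 16.5 CPM against 1.66, 4.61 and 2.17 CPM (log2 fold change -2.09, SE 0.44, adjusted p = 0.579 by edgeR). Its adjusted p was 0.00151 with DESeq2 and 0.00589 with edgeR's exact test. Acot3, a peroxisomal thioesterase, was at 0.988, 0.493 and 0.604 CPM against 3.27, 2.61 and 15.3 CPM (log2 fold change 3.32, SE 0.75, adjusted p = 0.579 by edgeR), and its adjusted p was 0.000541 with DESeq2 and 0.00699 with the exact test. Cyp2b9 was at -3.18 (SE 1.27, adjusted p = 0.940 by edgeR). Cyp2a4, Cyp2b9, Acot3, Selenbp2, Cyp4a12a and Cyp4a12b have near-identical paralogs, so that the split of reads between these genes is uncertain. Of the 3 female-biased genes with an unadjusted p under 0.05, 2 had lower and 1 had higher values in FOXA2H-KO.

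**Figure D4:**
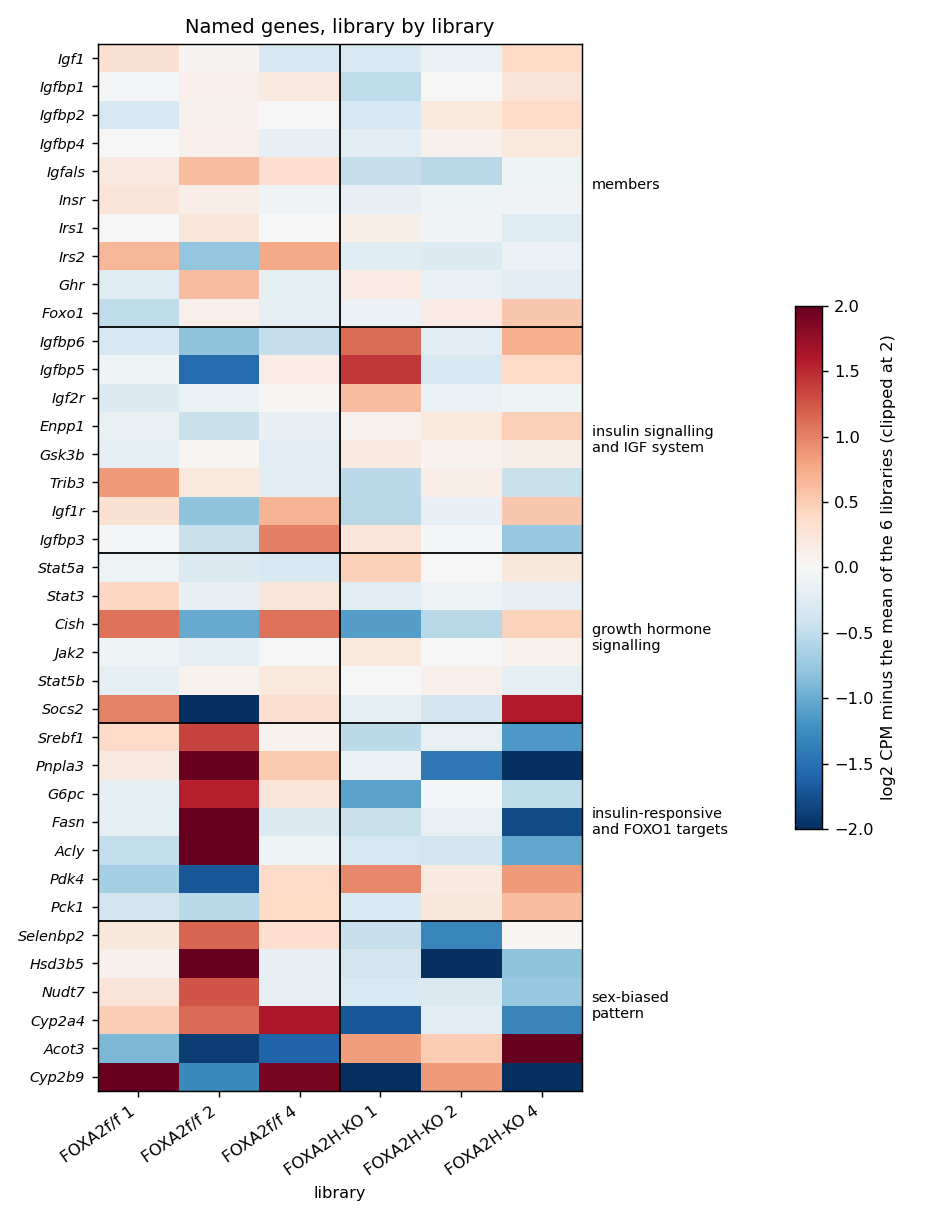
Colour gives log2 CPM minus the mean of the 6 libraries, clipped at 2 either way, for 37 named genes (rows, grouped by list) in each library (columns, FOXA2f/f left of the line). In the FOXA2f/f 2 column Fasn, Acly, Pnpla3 and Hsd3b5 are high and Socs2, Igfbp5 and Pdk4 low. Other columns also hold strong colour, such as Cyp2b9 in FOXA2f/f 1 and in FOXA2H-KO 1 and 4, Acot3 and Pnpla3 in FOXA2H-KO 4, and Hsd3b5 in FOXA2H-KO 2. Igfals, the only such member, and Cyp2a4 change at the line between groups. Other plotted genes also have groups without overlap, among them Acot3, Srebf1, Pnpla3, Hsd3b5, Nudt7, Selenbp2, Igfbp6, Enpp1 and Stat5a.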

How the data were processed

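Poly-A RNA of primary hepatocytes, isolated by collagenase perfusion and low-speed centrifugation, was sequenced as paired-end TruSeq libraries. The submitters' processing notes name CASAVA 1.8, TopHat2 2.1.0, HTSeq, edgeR and mm10, and the annotation is not given in the sources used here. The authors deposited raw fragment counts per Ensembl gene and FPKM values, which follow from the counts, the total count and 1 length per gene. A pooled table with the same values was not used.

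The count analysis ran edgeR 4.0.16 under R 4.3.3, with filterByExpr, TMM factors, the quasi-likelihood test and Benjamini-Hochberg adjustment over 14417 genes, with calls at an adjusted p under 0.05 and a fold change of at least 2. CPM were scaled by TMM. Alternatives were DESeq2 1.42.0, edgeR's exact test, 3 other scalings, 2 other filters, limma 3.58.1 on log2(FPKM + 1) and log2(FPKM + 0.1), a replicate block, and leaving out each library. The members and lists were chosen with earlier results of these data known. Companion genes named are the up to 6 of each list with an unadjusted p under 0.05, at least the 3 smallest, and 10 core genes, and some genes that this gives are not reported here. Nothing says whether each library came from a separate mouse, so that p-values measure the spread between these libraries. Totals of 20983455 to 28327765 fragments put at least 138 fragments behind each value of a member.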

Additional observations from a re-analysis of the deposited data

How the results depend on the processing

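No member was called under any of the 16 alternative fits or without the fold threshold. Of 160 member fold changes under these alternatives, 10 changed sign. Igfals kept its direction in all 16 and an unadjusted p under 0.05 in each. The number of genes called moved from 1 to 0 by library size alone and in both limma fits on log2(FPKM + 1) and log2(FPKM + 0.1), to 2 without the filter on low counts, to 64 with edgeR's exact test and to 75 with DESeq2. It was 0 to 6 when 1 library was left out, with 6 without FOXA2f/f replicate 2 and 0 without any of the other 5 libraries. When 1 library was left out, 1 to 3 members had an unadjusted p under 0.05. There were 3 without FOXA2f/f replicate 2, beside 828 of 14821 genes tested, and 2 without FOXA2H-KO replicate 1, beside 596 of 14665. The other settings of this kind had 1 member each, beside 411 of 14767 genes without FOXA2H-KO replicate 4 and up to 2424 of 14560 without FOXA2f/f replicate 4. By library size alone and in both limma fits 2 members had such a p, where Foxo1 joined Igfals. All genes with such a p were 723 of 14417 by library size, and 648 and 642 of 10278 in the limma fits. Members without overlap were 2 under upper quartile scaling, library size alone and DESeq2 size factors (Insr, or Foxo1 by library size, beside Igfals). The share of all genes without overlap was counted under TMM alone, so that no such share stands beside these counts. The cause of these moves was not tested.

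With the replicate number as a block 0 genes were called. Same-numbered libraries did not deviate together (correlations of -0.069, 0.026 and -0.226), so that the numbers were not taken as pairs.

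Igf1 was at 0.11 by library size alone, at 0.10 in both limma fits, and at -0.24 to 0.16 without single libraries. Stat5b was at 0.04 by library size and 0.06 in both limma fits, and at -0.15 to 0.03 without single libraries. Leaving out 1 library turned Igfbp1 (-0.30 to 0.06), Igfbp4 (-0.03 to 0.17), Ghr (-0.32 to 0.16), Igf1r (-0.54 to 0.13), Igfbp3 (-0.69 to 0.11) and Socs2 (-0.47 to 1.07), and the log2 ratios of Irs2 to Irs1 (-0.86 to 0.04), Igfbp1 to Igf1 (-0.35 to 0.09) and Insr to Ghr (-0.35 to 0.15). With 3 libraries a group and a biological coefficient of variation of 25.3%, the 95% interval of the members ran from that of Insr, -0.54 to 0.10, to that of Irs2, -1.41 to 0.27 on the log2 scale. The intervals came from the main fit under TMM and were not adjusted for the number of members. A change outside them is not excluded.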
